A study of Mus musculus with 16 samples.

Results

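The effect of nicotine was examined here over all 16 mice of the study, as the mean of the groups Nicotine-Water (NW) and Nicotine-Ethanol (NE) minus the mean of the groups Water-Water (WW) and Water-Ethanol. This left 8 mice on each side, with access to ethanol, but not the amount drunk, balanced between the sides. The members are the 15592 genes, of 24062 in the table of read counts, that passed a filter on low counts. RNA was sequenced from whole brain, cerebellum included, of female C57BL/6J mice killed on postnatal day 45. NW and NE mice had 3 bottles of 200 µg/ml nicotine in tap water for 22 h a day, and the other groups had tap water in the same bottles. In the hours without those bottles, Water-Ethanol and NE mice drank 20% v/v ethanol by drinking-in-the-dark, and NW and WW mice drank water, in a last session of 4 h that ended with tissue collection. The comparison thus concerns nicotine as drunk by each mouse until the last 4 h, when no nicotine was on offer. The study names withdrawal from nicotine, rather than intake, as a possible source of differences in its nicotine group. Intake and withdrawal cannot be told apart here. The NE side of the comparison holds mice that took both drugs. The study reported that NE mice drank more ethanol than Water-Ethanol mice in the last session and had higher blood ethanol. Nicotine and the amount of ethanol drunk therefore cannot be told apart between NE and Water-Ethanol.

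Nicotine opens nicotinic acetylcholine receptors, cation channels built of 5 subunits. In the brain the most widespread type is made of the alpha4 and beta2 subunits (Chrna4 and Chrnb2), and another of alpha7 (Chrna7). Receptor opening releases dopamine and other transmitters and engages hypothalamic stress peptides, and long exposure is known to raise the number of alpha4beta2 receptors at the protein level without a matching rise of their mRNA.

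Total counts ran from 27100352 to 32880979 per mouse (median 29448284), and 0 pairs of libraries were identical. Values are given as CPM, counts divided by the scaled library size, and a log2 fold change is nicotine minus water from the edgeR quasi-likelihood fit of the 4 groups. The median standard error of that fold change was 0.0504 on the log2 scale. Some libraries stood apart. Rn45s, the precursor of ribosomal RNA, took 1.37%, 0.729%, 3.9% and 0.414% of the counts in NW mice 7, 8, 10 and 11, and 0.274% to 0.617% in the other 12 mice. The summed level of 6 cerebellar markers was 263 CPM in WW mouse 21 and 397 CPM in NW mouse 10, against 899 to 1060 CPM in the other mice. Summed olfactory bulb markers ranged from 39.4 to 86.7 CPM in water mice and from 44.2 to 79.0 CPM in nicotine mice. Fewer cells of a type and less RNA per cell cannot be told apart in such bulk samples.

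Over all genes, no difference between nicotine and water mice passed the threshold. At an adjusted p under 0.05 the edgeR quasi-likelihood test called 0 of 15592 genes (0.0%), and the smallest adjusted p was 0.168. At an unadjusted p under 0.05 it held 1599 genes (10.3%), of which 1044 (6.7%) were lower and 555 (3.56%) higher in nicotine mice. Other count tests on the same table did make calls. DESeq2 called 104 genes (0.667%), 100 lower and 4 higher, and the edgeR likelihood-ratio test called 54 (0.346%), 52 lower and 2 higher, with 51 genes in both lists. Both shares are of all 15592 genes, to 6046 of which DESeq2 gave no adjusted p. The 4 genes that DESeq2 called higher were Dagla, Pip5k1c, Prrt3 and Slc35b2.

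The 25 genes of smallest p are described next. They were picked for these values, so their folds are a description. Of the 25, 24 were lower with nicotine and 1, Prrt3, was higher. Their log2 fold changes lay between -0.34 and 0.13, and their adjusted p between 0.168 and 0.17. Most of them shared a property that was not used to pick them, a transcript poor in G and C. The median GC content of their transcripts was 38.4%, against 50.4% over all genes tested, and 23 of the 25 lay under that all-gene median. Among the 25, Tmed5 had the transcript of lowest GC (35.0%) and Prrt3 that of highest (60.7%). To show what such a difference in base composition looks like, the central 90 coding bases of each (GENCODE M21, GRCm38) are printed with every G and C in capitals. Those of Tmed5, at chr5:108121647-108132591 on the minus strand, are coding bases 298 to 387, and those of Prrt3, at chr6:113493639-113501931 on the minus strand, are coding bases 1414 to 1503.
Tmed5: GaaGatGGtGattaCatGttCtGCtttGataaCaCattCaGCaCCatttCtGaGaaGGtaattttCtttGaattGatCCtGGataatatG
Prrt3: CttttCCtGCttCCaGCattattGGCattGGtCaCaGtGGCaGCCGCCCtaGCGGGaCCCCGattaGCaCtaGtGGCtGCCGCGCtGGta
In the Tmed5 stretch 31 of 90 bases were G or C, and in the Prrt3 stretch 53 of 90. The whole coding sequence of Tmed5 is less poor in G and C than the stretch shown, at 45.0% GC, and that of Prrt3 has 63.6%.

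Ppig had the smallest p of all. It encodes a nuclear cyclophilin of the splicing machinery. Its level was 109, 107, 105 and 102 CPM in the 4 WW mice and 78.6, 87.8, 87.7 and 93.4 CPM in the 4 NW mice. In the ethanol-drinking groups it was 93.7, 99.9, 96.3 and 98.6 CPM in Water-Ethanol and 95.1, 88.4, 89.9 and 89.1 CPM in NE. Of the 8 nicotine mice, 7 lay under all 8 water mice, and the distance was wider in the water-drinking pair of groups. The mean was 101 ± 5.23 CPM in water mice and 88.7 ± 4.9 CPM in nicotine mice (SD, n = 8 each). The log2 fold change was -0.19 with an SE of 0.0324, and the adjusted p was 0.168 in edgeR.

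Other genes of RNA handling and transcription were among the 25. Ythdf3, a reader of m6A marks on mRNA, had 115, 119, 110 and 114 CPM in WW and 73.9, 89.6, 90.8 and 95.6 CPM in NW. Water-Ethanol mice had 105, 105, 108 and 103 CPM of it and NE mice 111, 96.1, 102 and 103 CPM, so that the nicotine mice were lower in the water-drinking groups and overlapped in the ethanol-drinking groups. H3f3a, which encodes the histone variant H3.3, had a log2 fold change of -0.17 (SE 0.0332). Since H3f3a has near-identical processed copies in the genome, its count is uncertain. Sp3, a transcription factor that binds GC boxes, had -0.17 (SE 0.0327), and its exons overlap those of an antisense gene, Sp3os. Whether reads were counted by strand is not given in the sources used here, so the 2 genes cannot be told apart. Lrif1, which encodes a chromatin protein that binds nuclear receptors and heterochromatin, had -0.24 (SE 0.049), and it measured 14.1 to 18.6 CPM in NW against 21.4 to 22.7 CPM in WW, and 18.5 to 20.7 CPM in NE against 20.7 to 22.2 CPM in Water-Ethanol. C1d, a cofactor of the nuclear RNA exosome, and the zinc finger genes Zfp367 and Zfp874b had -0.20, -0.17 and -0.18. Eef1e1, a component of the multi-tRNA synthetase complex, had -0.20, and Gm20300, a long non-coding RNA, had -0.18.

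Genes of the secretory pathway and protein turnover formed another part of the 25. Tmed5, a p24 protein of vesicles between the endoplasmic reticulum and the Golgi, had 51.7, 53.4, 49.2 and 46.0 CPM in WW and 29.5, 36.2, 36.5 and 40.4 CPM in NW. Its levels were 42.8, 45.2, 45.6 and 45.8 CPM in Water-Ethanol and 50.8, 40.4, 39.8 and 40.0 CPM in NE. NE mouse 2 was the highest of the ethanol drinkers while the other 3 NE mice lay below every Water-Ethanol mouse. Vma21, an assembly factor of the proton pump of vesicles, had a log2 fold change of -0.25, Dnajb9, a co-chaperone of the endoplasmic reticulum, -0.19, and Tceb1, the elongin C subunit of ubiquitin ligases, -0.21. Ube2g1, a ubiquitin-conjugating enzyme, had -0.16. Styx, a catalytically inactive relative of the dual-specificity phosphatases, had -0.24, and its exons overlap those of Gnpnat1 on the opposite strand. Arl13b, a small GTPase of the primary cilium, had -0.20. For Sh3bgrl, Tmem47 and Fam174a, whose roles are less clear, the values were -0.21, -0.22 and -0.18.

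Among the 25 were also genes that act at the cell surface or outside the cell. Spock3, a secreted proteoglycan of brain, had 170, 176, 164 and 158 CPM in WW and 112, 134, 132 and 141 CPM in NW, and a pooled log2 fold change of -0.21 (SE 0.04). St8sia4, an enzyme that adds polysialic acid to the neural cell adhesion molecule, had -0.22 (SE 0.0424). Hs3st3b1, a sulfotransferase that modifies heparan sulfate, had the lowest fold of the 25, -0.34 (SE 0.0763), at a low level. It measured 3.84, 3.67, 3.77 and 4.37 CPM in WW and 2.56, 2.3, 2.66 and 3.15 CPM in NW, then 3.35, 3.83, 3.26 and 3.38 CPM in Water-Ethanol and 3.15, 2.94, 3.23 and 3.26 CPM in NE. Every nicotine mouse was under every water mouse in log2 CPM, though NE mouse 5 and Water-Ethanol mouse 15 both round to 3.26 CPM. Its transcript GC of 51.5% was above the all-gene median, unlike that of most of the 25.

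Prrt3, a proline-rich membrane protein, differed by like amounts in both pairs of groups. It had 42.9, 45.1, 44.0 and 45.7 CPM in WW against 49.0, 48.7, 50.5 and 47.6 CPM in NW. In Water-Ethanol it had 42.4, 44.3, 47.6 and 44.9 CPM against 49.4, 47.9, 49.6 and 47.8 CPM in NE. The differences were 0.14 (NW minus WW) and 0.12 (NE minus Water-Ethanol) on the log2 scale. An exact permutation test, in which nicotine labels were exchanged within ethanol groups over 4900 relabellings, gave p = 0.000408, the smallest it can give. That value is not adjusted for the choice of the gene, which was made on these same mice, so no conclusion is drawn from it. With the correction for transcript GC described below, the pooled log2 fold change of Prrt3 went from 0.13 to 0.09.

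In 6 genes (0.0385%) all 8 nicotine mice lay under all 8 water mice, and in 1 gene (0.00641%) all lay above. The 6 were Lrif1, Hs3st3b1, Wfikkn1, Zfp654, Mctp1 and Ythdc1. Wfikkn1, a secreted inhibitor that binds myostatin and GDF11, had the lowest log2 fold change among them, -0.79 (SE 0.199), at the edge of detection. Levels of Wfikkn1 were 0.366, 0.487, 0.43 and 0.391 CPM in WW and 0.319, 0.194, 0.333 and 0.153 CPM in NW. In Water-Ethanol they were 0.575, 0.37, 0.59 and 0.504 CPM and in NE 0.309, 0.186, 0.302 and 0.343 CPM. The difference was -0.76 in the water-drinking pair and -0.82 in the ethanol-drinking pair, and its transcript GC was 58.5%. On the deposited FPKM scale the difference of Wfikkn1 was -0.08 for log2(FPKM + 1) and -0.37 for log2(FPKM + 0.1), scales that understate the fold of low genes. Zfp654, a zinc finger gene, had -0.21, Mctp1, a calcium-binding membrane protein, -0.14, and Ythdc1, a nuclear reader of m6A, -0.11. The gene that lay above was Lypla2, a thioesterase that removes palmitate from proteins, at 45.4 to 47.7 CPM in water and 48.3 to 53.6 CPM in nicotine mice (log2 fold change 0.11). None of these genes passed the adjusted test in edgeR, where the adjusted p of Wfikkn1 was 0.191 and that of Lypla2 0.221.

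**Figure D1:**
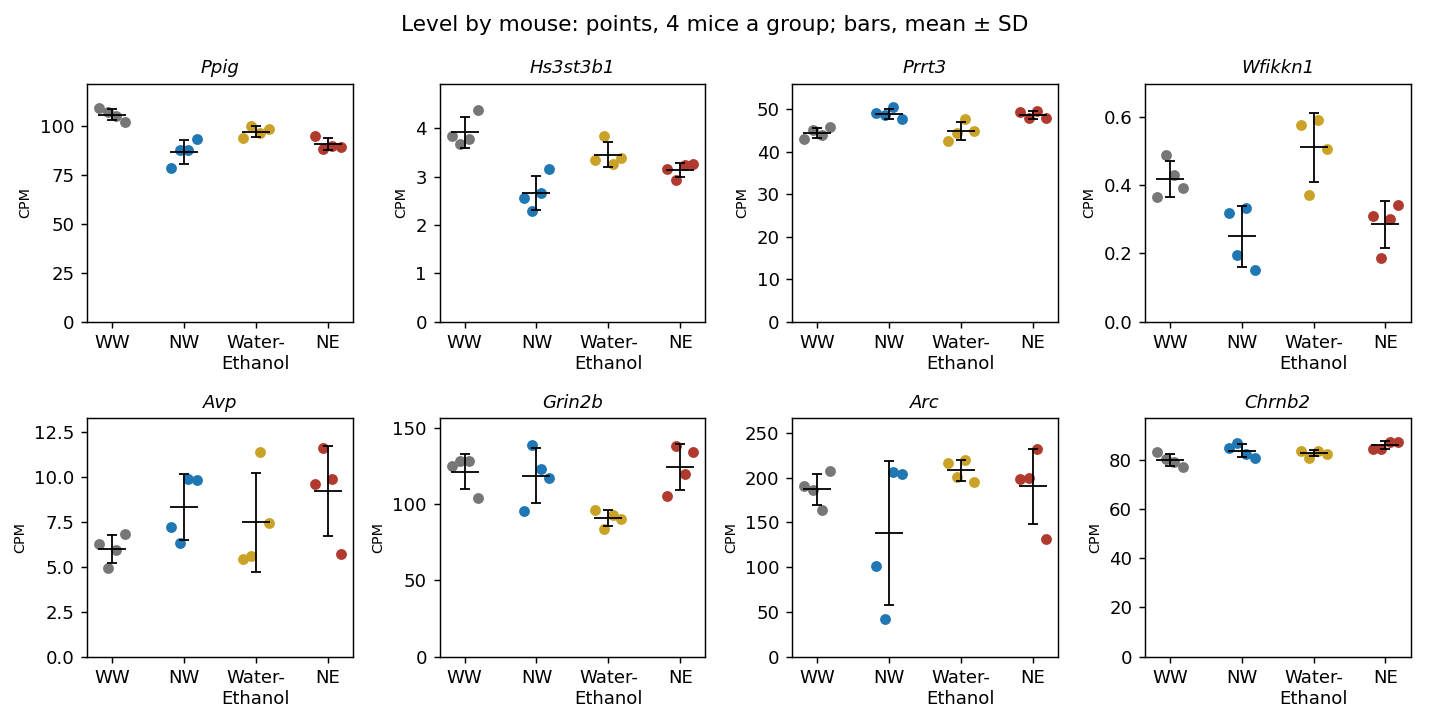
Level of 8 genes in CPM (vertical axis, from 0) by group (horizontal axis), with 1 point for each of 4 mice a group and bars for the mean and SD. Ppig, Hs3st3b1 and Wfikkn1 sit lower and Prrt3 higher in NW and NE than in WW and Water-Ethanol, Grin2b lies at 83.9 to 96.0 CPM in Water-Ethanol, a range that also holds 1 NW mouse, and Arc is low in 2 NW mice (101 and 42.3 CPM).

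The pooled value is the average of 2 differences that share no mouse, NW minus WW and NE minus Water-Ethanol. NW against WW gave 112 calls (0.718%) in the same edgeR quasi-likelihood fit, of which 109 were lower and 3 higher. These calls rested on single mice, with 0 left without WW mouse 18 or WW mouse 19, 8 without NW mouse 8, 22 without WW mouse 20, 34 without NW mouse 7, 38 without NW mouse 10 and 71 without Water-Ethanol mouse 13, and 392 made without NW mouse 11. A fit of the 8 WW and NW mice alone gave 0. At an unadjusted p under 0.05 it held 1838 genes (11.8%). NE against Water-Ethanol gave 0 calls (0.0%), with 612 genes (3.93%) at an unadjusted p under 0.05. The test of the difference between the 2 pairs, the nicotine by ethanol interaction, also gave 0 calls (0.0%) with 1054 genes (6.76%) at an unadjusted p under 0.05, so that no single gene was shown to respond differently. With DESeq2 2 genes passed that interaction test, Serp1 and Snord15b, and with the likelihood-ratio test Snord15b did. The 3 genes that rose in NW were Rn45s, Snord15b and Mir6236, and all 3 had a value below 0 for NE minus Water-Ethanol. Snord15b is thus 1 of the interaction calls. All 3 had an unadjusted interaction p under 0.05 in the edgeR quasi-likelihood fit, which their choice by NW minus WW favours.

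In the fit of all 16 mice, the 109 genes called lower in NW had a median log2 difference of -0.308 there and of -0.032 between NE and Water-Ethanol. Of these, 82 were also lower in NE than in Water-Ethanol, but only 1 at an unadjusted p under 0.05. Across all 15592 genes, the differences of the 2 pairs had a Pearson r of -0.025, across genes, which are not independent replicates. Of 1354 genes lower in NW at an unadjusted p under 0.05 (8.68%), 863 (63.7%) were lower in NE as well, where 49.8% of all genes were. Of 484 genes higher in NW (3.1%), 286 (59.1%) were higher in NE and 198 (40.9%) lower, where 49.8% of all genes were lower. The same counts after a correction for transcript GC are given below with that correction.

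Each of the 25 genes above had the same sign in both pairs, which their choice by the pooled value favours, and 24 had the larger difference in the water-drinking pair. Their median was -0.316 for NW minus WW and -0.074 for NE minus Water-Ethanol. The plot of both differences per gene shows this as a cluster far to the left and close to the horizontal axis.

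**Figure D2:**
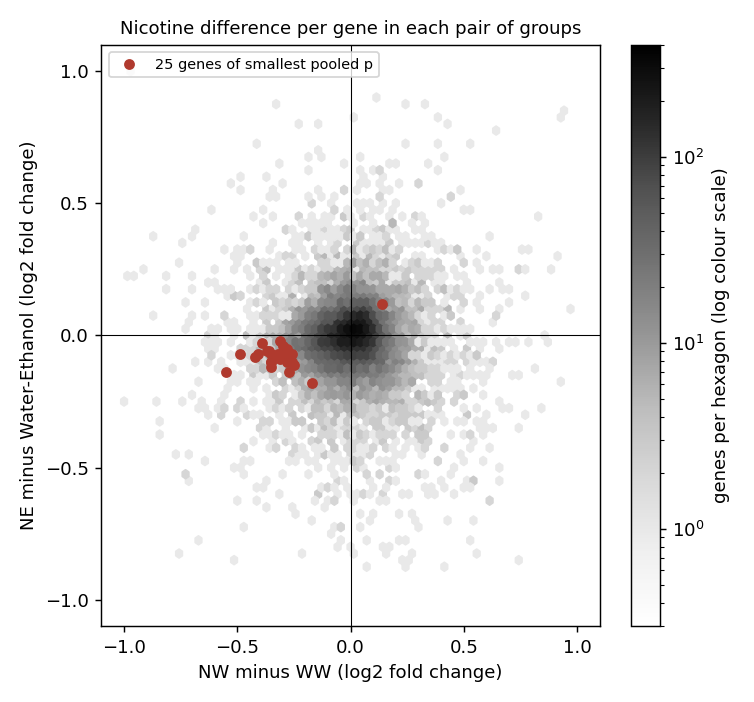
Log2 fold change of NW minus WW (horizontal axis) against NE minus Water-Ethanol (vertical axis) for all genes tested, shaded by the number of genes per hexagon on a log colour scale, with the 25 genes of smallest pooled p in red. The 45 genes past 1 on either axis are not drawn. The cloud has no tilt (r = -0.025), and 24 red points lie left of 0 with a median of -0.316 on the horizontal and -0.074 on the vertical axis.

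In 38 genes (0.244% of those tested) both pairs passed an unadjusted p under 0.05 in the same direction, 26 lower and 12 higher. In 20 genes (0.128%) both passed in opposite directions. Taken alone, NW minus WW had 1354 genes lower and 484 higher at that p, and NE minus Water-Ethanol had 253 lower and 359 higher. Whether 38 is more than unrelated pairs would share was not tested. These 38 were singled out after their values were seen, and none has an adjusted p under 0.05 in edgeR. Rbm3, a cold-inducible RNA-binding protein, had 75.2, 59.9, 60.3 and 74.5 CPM in WW and 55.2, 52.5, 56.0 and 55.5 CPM in NW. In Water-Ethanol it had 74.4, 72.3, 62.3 and 57.8 CPM and in NE 63.7, 51.7, 54.8 and 57.3 CPM. The pooled log2 fold change was -0.26, and NW mice lay under WW mice while NE and Water-Ethanol mice overlapped. The splicing factors Srsf1 and Tra2a had -0.16 each, Pcf11, a factor of transcription termination, -0.17, and Hnrnpa3 -0.10. Pde3b, a phosphodiesterase that degrades cAMP, had -0.18, and Lox, an enzyme that cross-links collagen, -0.36 at about 2.8 CPM. Among the 12 higher genes were Sstr3, the somatostatin receptor of neuronal cilia, at 0.13, Slc25a22, a mitochondrial glutamate carrier, at 0.10, and Slc35b2, a Golgi carrier of the sulfate donor PAPS, at 0.20.

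Base composition was then set against the nicotine difference over all genes. Transcript GC was known for 15296 of the genes tested (98.1%). The 1044 genes lower at an unadjusted p under 0.05 had a median GC of 41.9%, and the 555 higher genes one of 56.3%, around the 50.4% of all genes. When the genes were split into 10 equal groups by GC, the median log2 fold change ran from -0.078 in the lowest GC group (31.2% to 41.9% GC) to 0.046 in the highest (58.4% to 82.2%). In the lowest GC group 519 of 1530 genes (33.9%) were lower and 7 (0.458%) higher at an unadjusted p under 0.05. The highest GC group had 7 lower and 158 higher (10.3%). The course over the groups had the same direction in both pairs of groups and was steeper between NW and WW, from -0.127 to 0.062, than between NE and Water-Ethanol, from -0.029 to 0.031. Of the 112 genes called between NW and WW, 82 were in the lowest GC group.

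**Figure D3:**
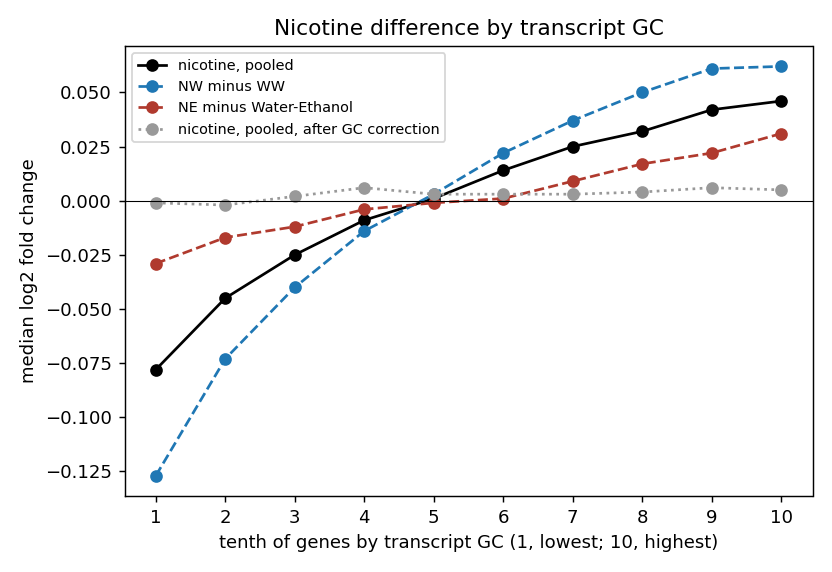
Median log2 fold change of nicotine minus water (vertical axis) in 10 equal groups of genes ordered by transcript GC (horizontal axis), pooled (black), for NW minus WW (blue), for NE minus Water-Ethanol (red) and pooled after the GC correction (grey). The black line climbs from -0.078 to 0.046, the blue line from -0.127 to 0.062 and the red line from -0.029 to 0.031, while the grey line stays between -0.002 and 0.006.

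Each mouse was given a GC slope, the change in its log2 CPM, relative to the mean of all mice, per 10 points of transcript GC. A positive slope means that GC-rich transcripts were relatively more abundant in that library. The slopes were -0.0529, -0.08, -0.0505 and -0.0348 in WW, and 0.1225, 0.0002, 0.0157 and 0.0047 in NW. They were -0.0087, -0.0212, 0.016 and 0.002 in Water-Ethanol, and 0.0261, 0.0348, 0.03 and -0.0038 in NE. All 4 NW mice exceeded all 4 WW mice, whereas NE and Water-Ethanol overlapped through NE mouse 5. NW mouse 7 stood far above the rest, and the WW mice were the most negative group. The pooled difference was 0.0576 (exact permutation test within ethanol groups, two-sided p = 0.00122). Within the pairs it was 0.0903 for NW minus WW (exact permutation p = 0.0286, the smallest that 4 against 4 mice allow) and 0.0248 for NE minus Water-Ethanol (exact permutation p = 0.0857). The 2 differences were not shown to differ from each other (exact permutation p = 0.162). Without NW mouse 7 the pooled difference was 0.0431 and without NW mice 7 and 8 it was 0.0448 (exact permutation p = 0.00163 and 0.00286). The labels give no preparation batch, and library numbers run in blocks by group, so that nicotine and any order of library preparation cannot be told apart.

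**Figure D4:**
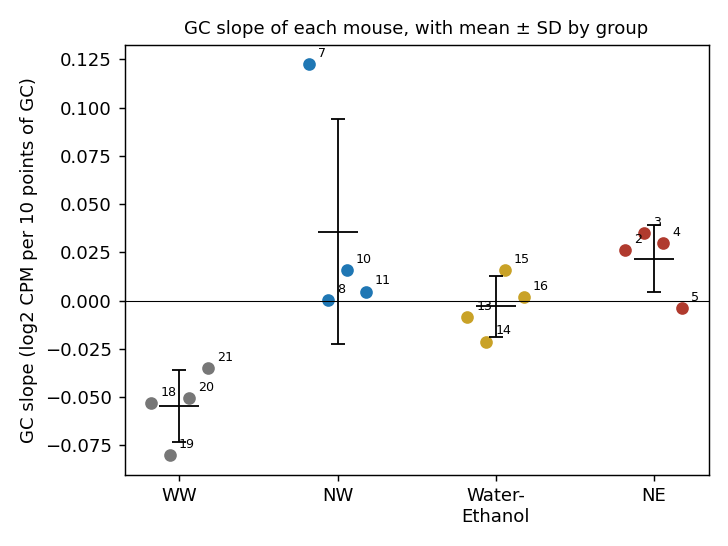
GC slope of each mouse in log2 CPM per 10 points of GC (vertical axis) by group (horizontal axis), with points numbered by mouse and bars for mean and SD. The 4 WW mice lie between -0.08 and -0.0348, NW mouse 7 at 0.1225, and the other 11 mice between -0.0212 and 0.0348.

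When a smooth curve of GC was removed from each mouse before the fit, which by construction takes away any average difference tied to GC, 722 genes remained at an unadjusted p under 0.05, 409 lower (2.62%) and 313 higher (2.01%). The quasi-likelihood test again called 0, and DESeq2 with the same correction called 0. Between NW and WW the quasi-likelihood calls went from 112 to 0, and DESeq2 with the correction called 47. Of the 109 genes called lower there before, 105 were at an unadjusted p under 0.05 after, and their median log2 difference went from -0.308 to -0.19. Of the 1599 genes at an unadjusted p under 0.05 before, 509 had one in the same direction after. With the correction, 621 genes were lower in NW than in WW at that p. Of these, 311 (50.1%) were lower in NE than in Water-Ethanol, where 45.1% of all genes were. Before the correction these shares were 63.7% and 49.8%. Of 308 genes then higher in NW, 154 were higher in NE and 154 lower. The Pearson r of the 2 pairs across genes was then -0.071. All 25 genes of smallest p stayed under an unadjusted p of 0.05, but their median log2 fold change went from -0.204 to -0.12. Hs3st3b1 kept its size (-0.34 before and -0.35 after), as did Wfikkn1 (-0.79 and -0.83) in the counts, while Ppig went from -0.19 to -0.09 and Tceb1 from -0.21 to -0.09. Of the genes named above as past an unadjusted p in both pairs, Hnrnpa3 had -0.02 after the correction, Srsf1 -0.10 and Slc25a22 0.06. Rbm3 then had -0.20, Tra2a -0.13, Pcf11 -0.12, Pde3b -0.14, Lox -0.32, Sstr3 0.10 and Slc35b2 0.16.

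Chromosome X, singled out after its values were seen, carries genes of lower GC (median 46.0%). It held 558 of the genes tested (3.58%) and 96 of the 1044 lower ones (9.2%). On X 17.2% of genes were lower at an unadjusted p under 0.05, against 6.31% on the autosomes. The shares were 20.6% and 8.24% for NW minus WW, and 1.61% and 1.62% for NE minus Water-Ethanol. In the pooled comparison after the GC correction, the shares were 6.99% and 2.46%. Tmem47, Vma21, Sh3bgrl and Rbm3 are X-linked genes that were described above.

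The receptors that nicotine binds come next, with the other lists of genes. As the background for each list, 7482 of all 15592 genes lay below 0 in the pooled comparison, 6.7% were lower and 3.56% higher at an unadjusted p under 0.05. Of 16 nicotinic receptor subunits 12 were expressed enough to be tested, 7 with a fold above 0 and 5 below. Chrnb2 had 83.1, 80.5, 79.0 and 77 CPM in WW and 85.0, 87.0, 82.4 and 80.7 CPM in NW, then 83.5, 80.9, 83.7 and 82.5 CPM in Water-Ethanol and 84.5, 84.4, 87.2 and 87.4 CPM in NE. Its log2 fold change was 0.06 (SE 0.0252, adjusted p = 0.404 in edgeR), and NE mice lay above Water-Ethanol mice while NW and WW overlapped. The exons of Chrnb2 overlap those of Adar on the opposite strand. Chrna4 likewise had 0.06 (SE 0.0319), at 45.8 to 50.9 CPM in water mice and 46.3 to 53.2 CPM in nicotine mice. Chrna7 had -0.02 (SE 0.0618), at 11.2 to 15.7 CPM and 11.7 to 15.1 CPM. Chrna1, the alpha subunit of the muscle receptor, had 0.74 between NW and WW and -0.03 between NE and Water-Ethanol, at 0.26 to 0.541 CPM. None of the 12 passed the adjusted test. Of 8 chaperones and modulators of the receptor, Ly6e, a relative of the lynx proteins, had 0.08 (adjusted p = 0.384 in edgeR), and Lypd6b 0.12.

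Stress neuropeptides were taken next, among them Avp and Pomc, which the study had named from these samples. Avp, which encodes vasopressin, had 6.26, 4.94, 5.96 and 6.82 CPM in WW, 7.19, 6.34, 9.91 and 9.86 CPM in NW, 5.45, 5.58, 11.4 and 7.45 CPM in Water-Ethanol, and 9.63, 11.6, 9.91 and 5.69 CPM in NE. Both pairs overlapped, through 1 NW mouse, 1 Water-Ethanol mouse and 1 NE mouse. The pooled log2 fold change was 0.39 (SE 0.16), 0.47 and 0.30 in the 2 pairs, with an adjusted p of 0.411 in edgeR. Pomc, the precursor of ACTH and melanocortins, had 0.879, 1.07, 0.96 and 1.03 CPM in WW and 1.66, 1.36, 2.89 and 1.13 CPM in NW. It had 1.52, 1.48, 1.25 and 0.863 CPM in Water-Ethanol and 1.51, 0.781, 1.31 and 1.06 CPM in NE. All NW mice exceeded all WW mice (0.81 on the log2 scale), and NE and Water-Ethanol overlapped (-0.12), so that the pooled value was 0.34 (SE 0.191, adjusted p = 0.569 in edgeR). NW mouse 10, the highest, also had a summed level of pituitary markers of 14.2 CPM, against 0.142 to 2.14 CPM in the other mice. Without it the pooled value was 0.18 and that of NW minus WW 0.49, values that rest on the remaining 3 NW mice. Oxt, which encodes oxytocin, had 0.22, and Crh, the releasing hormone that drives ACTH, 0.01 (SE 0.12). Crhr1, its receptor, had 0.07 (SE 0.0617). Over the list of 15 stress peptides and receptors tested, 1 was higher and 0 lower at an unadjusted p under 0.05, with a median of 0.008 against 0.003 over all genes. After the GC correction 2 were higher and 0 lower at that p, where 2.01% of all genes were higher.

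Among feeding and arousal peptides, 3 of 14 were higher at an unadjusted p under 0.05 (3.56% of all genes were) and 0 lower, and the median was 0.076. After the GC correction 0 of the 14 were higher at it. Hcrt, the orexin precursor, had 0.26 (SE 0.109), Tac2, the neurokinin B precursor, 0.17, and Sst, somatostatin, 0.10, and Npy, neuropeptide Y, had 0.11. Levels of Hcrt were 3.07, 3.48, 2.78 and 4.94 CPM in WW, 5.05, 4.4, 4.4 and 3.86 CPM in NW, 3.69, 4.07, 3.57 and 4.53 CPM in Water-Ethanol, and 3.98, 5.32, 5.01 and 4.04 CPM in NE. The groups of each pair overlapped. A list of 6 hypothalamic markers, which itself holds Avp, Oxt and Hcrt, summed to 36.0 to 48.3 CPM in water mice and 36.1 to 48.5 CPM in nicotine mice. Its median log2 fold change was 0.215 over the 5 tested, 2 of them (Avp and Hcrt) at an unadjusted p under 0.05. Pmch and Trh, also of this list, were not raised, at -0.00 and -0.09. Amounts of hypothalamus and levels within it cannot be told apart. Opioid genes had a median of 0.075 over 7 genes, with 0 at an unadjusted p under 0.05. Of these Penk had 0.05 and Pnoc 0.10.

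Immediate early genes, which neuronal activity switches on, had the lowest median of the pathway lists, -0.09. Of 31 tested, 25 were lower, 3 of them at an unadjusted p under 0.05 (Egr2, Klf4 and Klf10, where 6.7% of all genes were), and 0 were higher at it. After the GC correction the median was -0.109, with 4 lower and 0 higher at that p, where 2.62% of all genes were lower. Arc, which acts at the postsynaptic density, had 190, 186, 164 and 207 CPM in WW and 101, 42.3, 206 and 204 CPM in NW. In Water-Ethanol it had 216, 201, 220 and 195 CPM and in NE 198, 199, 232 and 131 CPM. The low values were those of NW mice 7 and 8, and the other 2 NW mice were within the WW range. Fos followed with 22.2, 12.8, 32.6 and 32.8 CPM in NW, against 28.8 to 33.6 CPM in WW, 28.0 to 35.3 CPM in Water-Ethanol and 27.9 to 34.5 CPM in NE. Nr4a1 had 51.4, 28.5, 92.1 and 80.8 CPM in NW and 66.3 to 90.0 CPM in WW. The pooled log2 fold changes were -0.28 for Arc (SE 0.212), -0.17 for Fos (SE 0.13) and -0.19 for Nr4a1 (SE 0.158), with adjusted p of 0.701, 0.698 and 0.729 in edgeR. Over the list, NW mouse 8 had the lowest level of all 16 mice in 19 of 31 genes and NW mouse 7 in 9. Without these 2 mice the list's median was 0.017, 14 of 31 genes were lower, and Arc, Fos and Nr4a1 had 0.00, 0.02 and 0.03. The medians of the list were -0.182 for NW minus WW and -0.025 for NE minus Water-Ethanol. Bdnf, a growth factor also induced by activity, had -0.06 (SE 0.0621).

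Of 23 genes of CREB and cAMP signalling, 3 were lower and 1 higher at an unadjusted p under 0.05, where 6.7% and 3.56% of all genes were. After the GC correction the counts were 1 and 0. Creb1, the transcription factor itself, had 95.0, 103, 104 and 94.4 CPM in WW and 67.8, 87.5, 84.4 and 90.8 CPM in NW. It had 85.3, 94.0, 78.8 and 90.2 CPM in Water-Ethanol and 85.4, 77.6, 78.0 and 87.8 CPM in NE. NW mice lay under WW mice, and NE and Water-Ethanol mice overlapped. The log2 fold change was -0.17 (SE 0.0532, adjusted p = 0.283 in edgeR), and -0.10 after the GC correction. Atf2 and Crem, of the same family, had -0.09 and -0.12, and Adcy3, an adenylyl cyclase of cilia, 0.07. Creb1 and Atf2 have transcripts of 39.6% and 40.5% GC.

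Genes of inhibition and excitation gave mixed values. Of 16 GABA-A receptor subunits 12 were lower, with a median of -0.055 that went to -0.003 after the GC correction, and the median GC of their transcripts was 43.5%. Gabrg1 had -0.13 (SE 0.0378) before and -0.00 after that correction. Gabrb1 had 0.08. Gabbr2, a subunit of the metabotropic GABA-B receptor, had 0.09, and Slc6a13, a GABA transporter of the brain's coverings, -0.13. Grin2b, the NR2B subunit of NMDA receptors, differed between the pairs. It had 125, 128, 128 and 104 CPM in WW and 95.2, 139, 123 and 117 CPM in NW, which overlap, but 96.0, 83.9, 92.9 and 90.3 CPM in Water-Ethanol and 105, 138, 120 and 134 CPM in NE, which do not. Its pooled value of 0.21 (SE 0.0693, adjusted p = 0.292 in edgeR) averages -0.03 and 0.45. The unadjusted p was 0.000211 in edgeR for NE minus Water-Ethanol and 0.00254 for the interaction, and neither passed once adjusted. Grin1, the obligatory NMDA receptor subunit, had 0.07, and Grm2 0.07.

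In the dopamine system, Slc18a2, the vesicular monoamine transporter, had -0.14, and of 16 genes 1 was lower and 1 higher at an unadjusted p under 0.05. Drd2 had 0.05 (SE 0.0597), at 15.8 to 20.6 CPM in water and 15.8 to 20.8 CPM in nicotine mice. Of genes that respond to glucocorticoids 15 of 19 were lower (median -0.058), and 1, Tsc22d3 at -0.07, was so at an unadjusted p under 0.05, a share near the 6.7% of all genes. After the GC correction the median was -0.065 and 2 were lower at that p, where 2.62% of all genes were. Sgk1 of this list had -0.32 in the ethanol drinkers and -0.06 in the water drinkers, and Hif3a had -0.77 and 0.07. The unadjusted p of their interaction was 0.217 and 0.0387 in edgeR, and neither gene passed an adjusted test. The pooled value of Hif3a was -0.35, and -0.21 without WW mouse 18. Klf15 had -0.09. Of 25 genes of heat shock and endoplasmic reticulum stress, 23 were lower with a median of -0.058, and 2, Dnajb9 and Canx, were at an unadjusted p under 0.05 (6.7% of all genes were lower at it). NW mouse 7 had the lowest level of the 16 mice in 18 of these 25 genes, and without it the median was -0.026 and 17 were lower.

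The remaining lists lay near the median of all genes. Oxidative phosphorylation genes had a median of 0.021, with 8 of 78 (against 3.56% of all genes) higher at an unadjusted p under 0.05, among them Ndufs7, Cox8a, Atp5d and Cox6a1 at 0.08 to 0.11. After the GC correction 2 of the 78 were. Cytosolic ribosomal protein genes had a median of 0.007 over 76 genes, and synaptic vesicle release genes one of 0.031 over 31, with Napa at 0.09, Stx1a at 0.11 and Slc17a6, a vesicular glutamate transporter, at -0.09. Chrm3, a muscarinic acetylcholine receptor, had 0.10. Among enzymes that can act on nicotine and other foreign compounds, Aox1, the aldehyde oxidase that forms cotinine, had -0.17 and Cyp1b1 -0.15. At an unadjusted p under 0.05, 2 of 15 were lower (6.7% of all genes were) and 0 higher. After the GC correction 1 was lower and 0 higher at it, where 2.62% of all genes were lower. In the antioxidant list Keap1, the repressor of NRF2, had 0.07 and Nfe2l2, which encodes NRF2, -0.10. Nr1d2 and Clock had -0.09 and -0.08 in the circadian list, where 2 of 20 genes were lower at an unadjusted p under 0.05. After the GC correction 3 of the 20 were, against 2.62% of all genes. In the cholesterol list Idi1 had -0.16, with -0.30 for NW minus WW (adjusted p = 0.0319 in edgeR) and -0.03 for NE minus Water-Ethanol. As for all quasi-likelihood calls between NW and WW, that of Idi1 was lost after the GC correction and without WW mouse 18 or 19. It was also lost in the fit of the 8 mice alone. Srebf2 had 0.06. Sirt1, a deacetylase, was at -0.12, the 1 of 38 chromatin modifiers at an unadjusted p under 0.05. Gdnf, a growth factor for dopamine neurons, had 0.915, 0.812, 0.927 and 0.888 CPM in WW and 1.02, 1.13, 0.999 and 1.38 CPM in NW, with 0.812, 0.605, 0.867 and 1.15 CPM in Water-Ethanol and 1.11, 1.3, 1.04 and 0.994 CPM in NE. Its differences were 0.36 and 0.37 in the 2 pairs, without overlap in the first, and the adjusted p was 0.338 in edgeR. Igf1 had -0.16, and none of 20 interferon and inflammation genes was at an unadjusted p under 0.05.

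**Figure D5:**
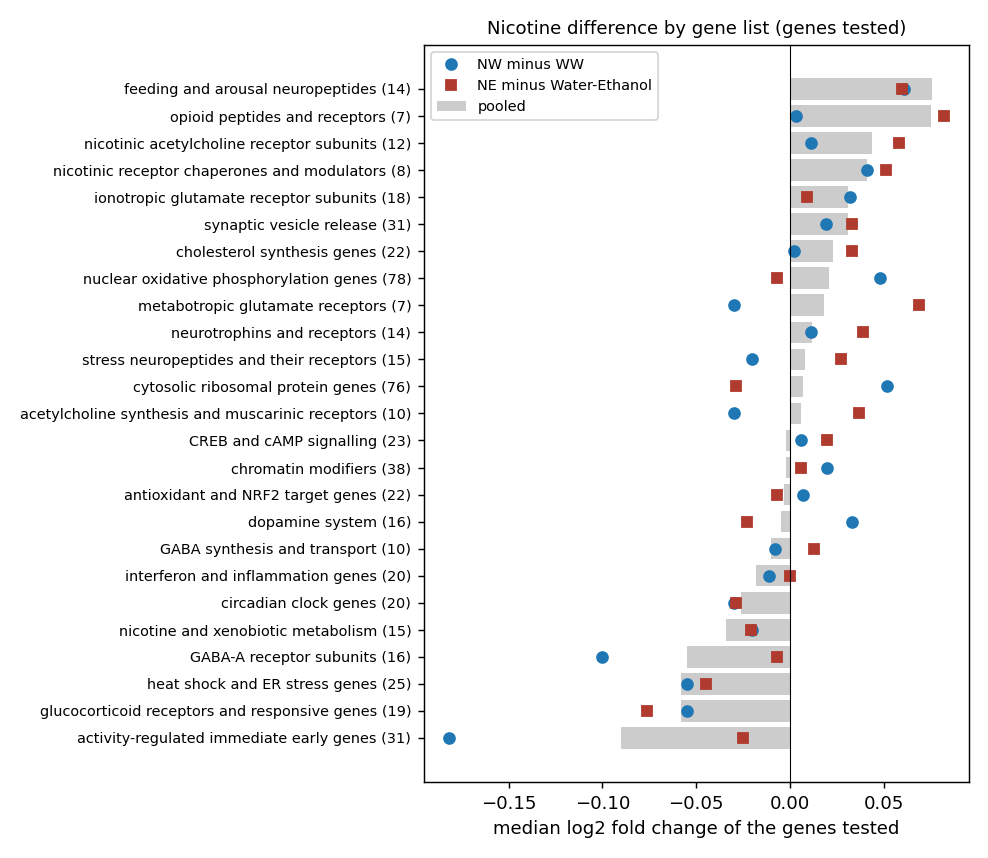
Median log2 fold change (horizontal axis) of the genes tested in each list (vertical axis, number of genes in brackets), pooled (grey bars), for NW minus WW (blue circles) and for NE minus Water-Ethanol (red squares). Of the pathway lists, immediate early genes have the lowest pooled median (-0.09, with -0.182 in the water drinkers) and feeding peptides the highest (0.076).

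Markers of other tissues were set beside these values. In the pooled comparison all 5 olfactory bulb markers and all 6 meningeal markers were lower in nicotine mice, with medians of -0.194 and -0.132. At an unadjusted p under 0.05, 1 olfactory marker and 0 meningeal markers were lower. The medians were -0.294 and -0.175 for NW minus WW, and -0.037 and -0.058 for NE minus Water-Ethanol. Between NE and Water-Ethanol, Sp8 (0.14) and Col1a1 (0.08) lay above 0. All 4 nasal epithelium markers had folds under 0 as well, with a median of -0.789 (-1.69 for NW minus WW and 0.211 for NE minus Water-Ethanol) and 0 at an unadjusted p under 0.05. Their sum was 27.2 CPM in WW mouse 20 and 1.39 to 10.3 CPM in the other mice. Pituitary markers were too low to be tested, and 4 of 5 red cell markers were listed at 0 in every mouse. Summed choroid plexus, ependymal, endothelial, astrocyte and oligodendrocyte markers overlapped between the sides. Microglial markers had a median of -0.035 (1 of 4 at an unadjusted p under 0.05), and their sum ranged from 160 to 212 CPM in water mice and from 147 to 181 CPM in nicotine mice. Their part in the values above was not tested, except that a fit with the cerebellar and olfactory levels as covariates again gave 0 calls in the pooled comparison.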

How the data were processed

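Per the labels and the methods of the study, total RNA of 16 whole brains was made into TruSeq libraries, and the submitters' processing notes list bcl2fastq 1.8.4, FastQC, Trimmomatic 0.32, TopHat2, Cufflinks and Cuffdiff, with build mm10. The authors deposited whole read counts per gene without normalization and a table of FPKM values. The study's methods name a stranded TruSeq kit and the first-strand setting of TopHat2, whereas the labels name a TruSeq kit that does not mark strand. The counting program and whether it used strand are not given in the sources used here.

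The genes and lists described were chosen with earlier results of these data known. Named genes are the 25 of smallest pooled p, up to 5 of highest and 5 of lowest fold among genes whose 8 and 8 mice do not overlap, the leading genes of each list, and genes central to the study, some of which it had picked from these samples. Ythdc1, the genes past an unadjusted p in both pairs and those called by another tool were named after their values were seen. Some genes that this rule names are not reported here. Groups follow the labels. Counts were fitted in edgeR 4.0.16 (R 4.3.3) with TMM scaling, filterByExpr and 4 group means. The SE of a fold change was taken as its size over the square root of F. P-values were adjusted by Benjamini-Hochberg over 15592 genes. FPKM values were tested with limma 3.58.1 on log2(FPKM + 1), and DESeq2 1.42.0 was an alternative, in which 6046 genes had no adjusted p. Transcript GC is that of the GENCODE M21 transcript nearest in length to the gene's exon length. The GC correction removed a natural spline of 5 degrees of freedom per mouse. Each group held 4 numbered libraries, and p-values measure the spread between them.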

Additional observations from a re-analysis of the deposited data

Results flagged for a closer look

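Within groups of 4 mice, 17 of 404 sets of values had 1 mouse far from the other 3 by Dixon's criterion, where chance gives about 1 in 20, or 20.2. Of these, NW mouse 7 was the lowest of its group for C1d (28.4 CPM), Crem (11.8 CPM) and Igf1 (11 CPM) and had the highest GC slope of its group (0.123). NW mouse 10 was the highest for Tac2 (5.03 CPM) and the lowest for Atp5d (125 CPM), and NW mouse 11 the lowest for Chrna1 (0.367 CPM). In WW, mouse 21 was the lowest for Grin2b (104 CPM) mouse 18 the highest for Aox1 (8.35 CPM) and mouse 19 the highest for Slc35b2 (19 CPM). In Water-Ethanol, mouse 13 was the lowest for Tmem47 (187 CPM) and mouse 14 the highest for C1d (35.5 CPM) and Mctp1 (87.4 CPM). In NE, mouse 2 was the highest for Tmed5 (50.8 CPM), mouse 3 for Egr2 (10.9 CPM) and mouse 5 for Crhr1 (35.2 CPM), and mouse 3 was the lowest for Ythdc1 (75.5 CPM).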

How the results depend on the processing

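The pooled comparison gave 0 calls in edgeR with TMM or RLE scaling, without a low-count filter, with a stricter one, with limma on log2(FPKM + 1) and log2(FPKM + 0.1), in an additive model, with the cerebellar and olfactory covariates and after the GC correction (722 genes at an unadjusted p under 0.05, against 1599). It gave 104 calls with DESeq2 and 54 with the likelihood-ratio test. Leaving out 1 mouse gave between 0 and 49 calls: 49 without NW mouse 11, 14 without NE mouse 2, and 0 without any other. After seeing the data, 3 further settings were added: DESeq2 with GC offsets (0 calls), leaving out NW mice 7 and 8 together (0 calls), and the GC correction without each mouse (0 calls). The cause of these differences was not tested.

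Between NW and WW, 112 calls became 366 with DESeq2, 285 with the likelihood-ratio test, 191 with covariates, 47 with DESeq2 and GC offsets, and 0 after the GC correction, in a fit of the 8 mice alone or without NW mice 7 and 8. Leaving out 1 mouse gave 0 (without WW 18 or WW 19) to 392 (without NW 11), with 8 without NW 8, 22 without WW 20, 34 without NW 7, 38 without NW 10 and 71 without Water-Ethanol 13. With the GC correction and 1 mouse left out the range was 0 to 86. Between NE and Water-Ethanol every setting gave 0. The interaction gave 2 calls with DESeq2 and 1 each with the likelihood-ratio test, covariates, and DESeq2 with GC offsets, and 0 elsewhere. The GC slope difference stayed between 0.0431 and 0.0639 over all its alternatives.

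Of 100 genes given with a fold change, 93 kept their sign under each setting run for single genes, which left out the GC correction without each mouse. The others were Chrna7 (0.01 in both limma fits, 0.03 without NW 7 and 8, and -0.05 to 0.02 with 1 mouse left out), Crh (-0.01 in both limma fits, -0.00 with the GC correction, the covariates, and DESeq2 with GC offsets, and -0.06 to 0.08 with 1 mouse left out), Bdnf (0.00 after the GC correction, 0.02 without NW 7 and 8), and, without NW 7 and 8, Crhr1 (-0.01), Arc (0.00), Fos (0.02) and Nr4a1 (0.03). No paired analysis was possible because the mice of different groups share no replicate number.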
